A study of Moricandia moricandioides and Moricandia arvensis and Moricandia suffruticosa with 11 samples.

Results

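The genes described here encode components of the pathways that return electrons from photosystem I to the plastoquinone pool. They were the 10 *Arabidopsis* gene identifiers PGR5 (AT2G05620), PGRL1A (AT4G22890), PGRL1B (AT4G11960), NDHN (AT5G58260), NDHM (AT4G37925), NDHO (AT1G74880), NDHL (AT1G70760), NDF1 (AT1G15980), NDF2 (AT1G64770) and CRR31 (AT4G23890). They were taken by identifier from a table of 33602 gene models, of which 18995 had at least 1 read. No cut-off on their values was applied, but the list was chosen with earlier results of these data known. Reads were found for 9 of the 10, and the 9 passed the filter on low counts.

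In cyclic electron flow, electrons leave photosystem I through ferredoxin and re-enter the chain at plastoquinone, so that protons are pumped and ATP is made without net NADPH formation. In flowering plants one route depends on PGR5 and the membrane protein PGRL1, and the other on the plastid NDH complex, a relative of respiratory complex I that accepts electrons from ferredoxin. The NDH complex is built from plastid-encoded and nuclear-encoded subunits, which are grouped into a membrane arm, subcomplex A, an electron donor-binding part, subcomplex B and a lumen part, and it joins photosystem I through linker proteins. C4 photosynthesis needs additional ATP, and in several C4 lineages cyclic electron flow components are abundant in the cells with the higher ATP demand.

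Transcripts were measured in mature leaves of the C3 species *M. moricandioides* (4 plants, numbers 6, 8, 12 and 15) and of the C3–C4 intermediates *M. arvensis* line MOR1 (4 plants, numbers 9, 12, 13 and 15) and *M. suffruticosa* (3 plants, numbers 6, 7 and 8). All plants were untreated, came from the same growth conditions, were not yet flowering and were sampled in the early light period. Each species came from a single seed source and only 1 species is C3, so that photosynthesis type, species and seed source cannot be told apart. Whole leaves were extracted, and fewer cells of a type and less RNA per cell cannot be told apart in such samples. Levels are given in rpm, the reads of a gene per 1000000 reads counted in that library. Since reads were counted on *Arabidopsis* coding sequences and no lengths were used here, an rpm value is compared between species for the same gene and not between genes. Whether the reads of a gene matched the *Arabidopsis* sequence equally well in each species was not tested. A difference in matching and a difference in transcript level cannot be told apart here.

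Between 10987959 and 14865167 reads were counted per library, so that 1 read was worth 0.0673 to 0.0910 rpm. *M. arvensis* plants 13 and 15 correlated at 0.993 over log2 rpm and *M. suffruticosa* plants 6 and 7 at 0.994, against at most 0.975 for the other pairs within a species. The counts of these close pairs still differed by more than sampling noise (chi-square per gene 4.78 and 8.27, against 26.5 or more for the other pairs), and they were kept as separate plants, with results also obtained after summing each pair. The leaf marker genes summed to 65933 to 109301 rpm per library, both root markers had 0 reads, and the flower markers reached at most 6.33 rpm, with differences between species that are given with the other markers.

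Differences between species were tested with edgeR's quasi-likelihood test over 15570 transcripts, with a transcript called at a Benjamini-Hochberg adjusted p of 0.01 or less. Fold changes are log2 values after TMM scaling with their standard error (SE), and an interval is the 95% interval from that error with 8 residual degrees of freedom. The edgeR test adds degrees of freedom shared over transcripts, so that these intervals are somewhat wider than its p-values imply. On this scale the median of all transcripts lay at 0.02 for *M. arvensis* and 0.01 for *M. suffruticosa* against *M. moricandioides*. Scaling by library totals moved these medians up by 0.13 and 0.07.

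The PGRL1 transcript was counted on a single gene copy. PGRL1A had 0 reads in all 11 plants, while PGRL1B collected 233260 reads. A count of 0 allowed at most 3 reads, equal to 0.202 to 0.273 rpm depending on the library. The alignment had used a reduced collection of *Arabidopsis* coding sequences, and 7 of the 73 entries of the pathway lists used here had 0 reads in every plant (PGRL1A, NDHB.2, FD2, PETE1, PSAD1, PSAE1 and PSAH1), each of them a copy of a duplicated gene. The 0 of PGRL1A therefore does not separate an absent transcript from reads credited to its partner, and the PGRL1B value stands for PGRL1 transcripts that could not be split.

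PGRL1B encodes the thylakoid protein that, with PGR5, is needed for the antimycin A-sensitive route. Its level was 1686, 1507, 1546 and 1561 rpm in *M. moricandioides* plants 6, 8, 12 and 15. In *M. arvensis* plants 9, 12, 13 and 15 it was 2007, 1806, 1846 and 1823 rpm, and in *M. suffruticosa* plants 6, 7 and 8 it was 1450, 1357 and 1316 rpm. In rpm the species did not overlap, and the order was *M. arvensis* (1871 ± 92.5 rpm, SD, n = 4), *M. moricandioides* (1575 ± 77.5 rpm, n = 4) and *M. suffruticosa* (1374 ± 69.0 rpm, n = 3). After TMM scaling the plants of *M. arvensis* and *M. moricandioides* overlapped, and those of *M. suffruticosa* stayed below both. None of these differences was called by edgeR. Against *M. moricandioides* the log2 fold change was 0.15 (SE 0.17, adjusted p = 0.495) for *M. arvensis* and −0.27 (SE 0.18, adjusted p = 0.28) for *M. suffruticosa*. Between the intermediates it was −0.42 (SE 0.19, adjusted p = 0.0991) in *M. suffruticosa*. The intervals of these differences were −0.24 to 0.54, −0.70 to 0.15 and −0.85 to 0.01. The last of them only just included 0, and the unadjusted p of that difference by edgeR was 0.0429.

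PGR5 is the small stromal protein whose loss in *Arabidopsis* impairs cyclic electron flow and the build-up of the proton gradient. In *M. moricandioides* its transcript was at 140.5, 166.3, 188.8 and 196.6 rpm in plants 6, 8, 12 and 15. In *M. arvensis* it was at 272.3 and 236.2 rpm in plants 9 and 12 but at 125.7 and 125.4 rpm in plants 13 and 15, the close pair. In *M. suffruticosa* plants 6, 7 and 8 it was at 187.8, 187.4 and 165.6 rpm. The *M. arvensis* plants thus held both the highest and the lowest levels of the series, with a coefficient of variation of 39.9%, and the other species lay between them. The means were 173 ± 25.2 rpm in *M. moricandioides* (SD, n = 4), 189.9 ± 75.8 rpm in *M. arvensis* (n = 4) and 180.3 ± 12.7 rpm in *M. suffruticosa* (n = 3), and neighbours in this order did not differ beyond their spread. The edgeR log2 fold change against *M. moricandioides* was 0.08 (SE 0.32, adjusted p = 0.851) in *M. arvensis* and −0.03 (SE 0.34, adjusted p = 0.964) in *M. suffruticosa*, with intervals of −0.65 to 0.81 and −0.81 to 0.76. Between the intermediates it was −0.10 (SE 0.34, adjusted p = 0.838) in *M. suffruticosa*. The sign of the fold change of *M. suffruticosa* turned to 0.06 with library totals, and that of *M. arvensis* ranged from −0.32 to 0.27 when single libraries were left out.

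**Figure D1:**
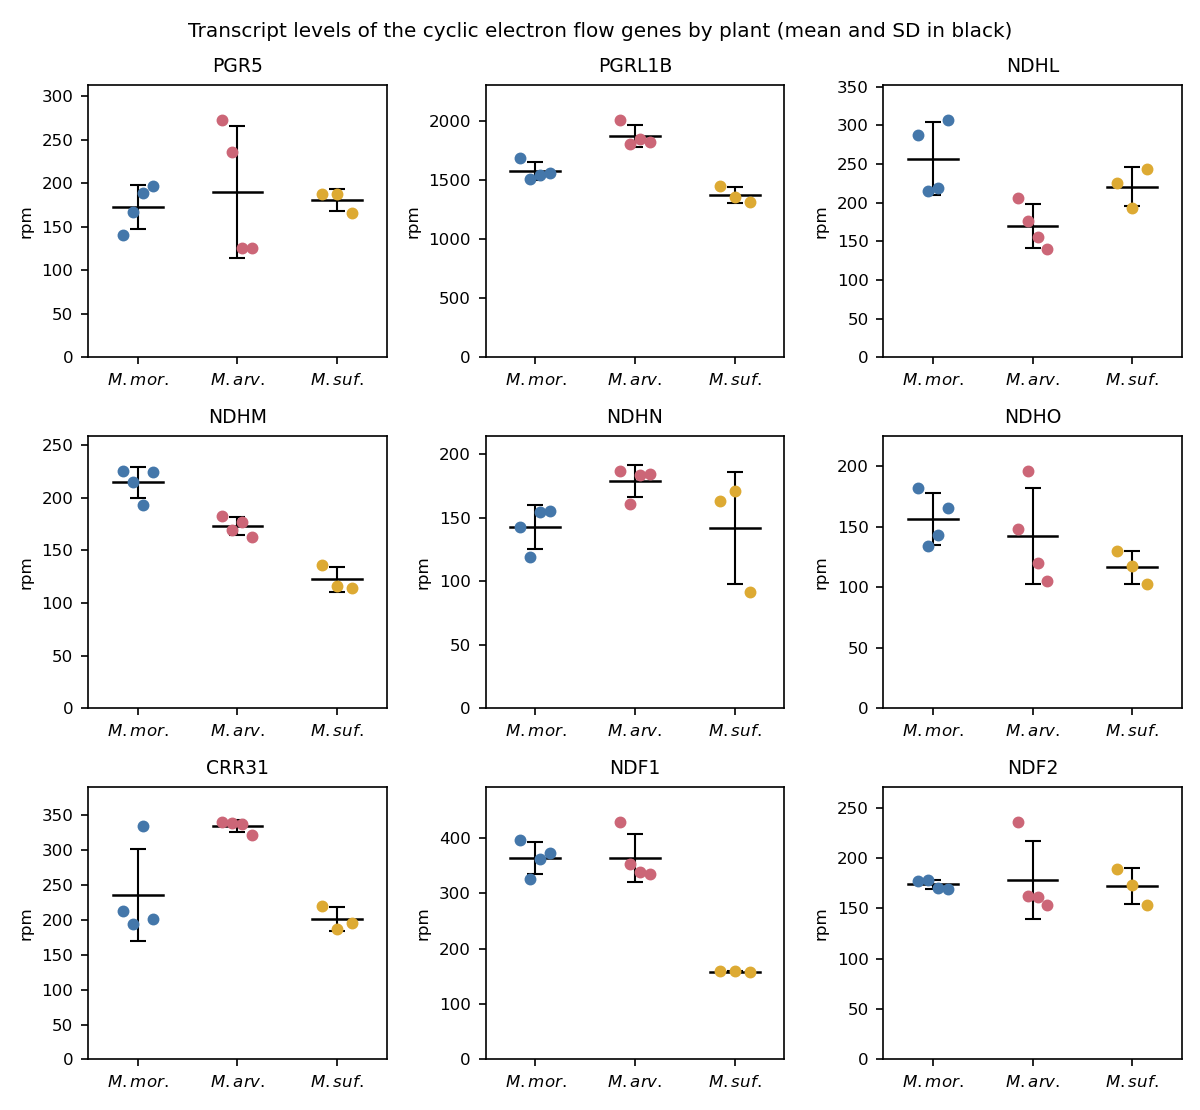
Transcript level in rpm (vertical axes, linear, each starting at 0) of the 9 cyclic electron flow genes with reads, by species (*M. moricandioides*, *M. arvensis*, *M. suffruticosa*). Points are plants, in order of plant number, and black bars give the mean and SD. NDF1 lies at 156.9 to 160 rpm in the 3 *M. suffruticosa* plants and at 325.9 rpm or more in all others, PGR5 is divided within *M. arvensis*, and PGRL1A, with 0 reads, is not drawn.

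Subcomplex A of the NDH complex holds the nuclear-encoded subunits NDHL, NDHM, NDHN and NDHO, and 1 of these 4, NDHM, was lower in *M. suffruticosa*. NDHM was at 225.2, 214.8, 193 and 224.4 rpm in *M. moricandioides* plants 6, 8, 12 and 15. It was at 182.3, 169.4, 176.9 and 162.5 rpm in *M. arvensis* plants 9, 12, 13 and 15. It was at 136.1, 116.5 and 114.4 rpm in *M. suffruticosa* plants 6, 7 and 8. In rpm the species formed a series without overlap, from *M. moricandioides* (214.4 ± 15.0 rpm) through *M. arvensis* (172.8 ± 8.68 rpm) to *M. suffruticosa* (122.3 ± 12.0 rpm). Against *M. moricandioides* the log2 fold change of *M. suffruticosa* was −0.88 (SE 0.17, edgeR adjusted p = 0.00206), 1.84-fold lower. That call was lost without *M. suffruticosa* plant 7 (adjusted p = 0.0161) and when the close pairs were summed (adjusted p = 0.0129), with log2 fold changes of −0.81 and −0.90. The log2 fold change was −0.41 (SE 0.15, adjusted p = 0.0417) for *M. arvensis* against *M. moricandioides* and −0.47 (SE 0.17, adjusted p = 0.0467) between the intermediates, so that neither step was called. After TMM scaling the plants of *M. arvensis* and *M. moricandioides* overlapped.

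NDHL, a membrane-spanning subunit of subcomplex A, gave another order. In *M. moricandioides* plants 6, 8, 12 and 15 it was at 287.2, 214.9, 219.4 and 306.9 rpm. In *M. arvensis* plants 9, 12, 13 and 15 it was at 205.7, 176.6, 155.6 and 140.8 rpm, and in *M. suffruticosa* plants 6, 7 and 8 at 225.8, 193.2 and 243.3 rpm. The 4 *M. arvensis* plants lay below the 4 *M. moricandioides* plants in rpm, but not after TMM scaling, and *M. suffruticosa* lay across the gap. The log2 fold change in *M. arvensis* was −0.68 (SE 0.23, edgeR adjusted p = 0.027), which was not called. Without *M. arvensis* plant 9, NDHL (−0.95, adjusted p = 0.00221) and NDHM (−0.58, adjusted p = 0.0028) were both called lower in *M. arvensis*. In *M. suffruticosa* the log2 fold change of NDHL was −0.29 (SE 0.25, adjusted p = 0.396) against *M. moricandioides* and 0.39 (SE 0.25, adjusted p = 0.239) against *M. arvensis*.

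NDHN and NDHO, peripheral subunits of subcomplex A, were not called in any comparison. NDHN was at 142.8, 118.8, 154.7 and 155.4 rpm in *M. moricandioides* and at 186.9, 160.8, 183.7 and 184.9 rpm in *M. arvensis*, in the same plant order. In *M. suffruticosa* it was at 163.5 and 171.2 rpm in plants 6 and 7 but at 91.3 rpm in plant 8, the lowest NDHN value of the 11 plants. *M. arvensis* lay above *M. moricandioides* in rpm, though not after TMM scaling (log2 fold change 0.21, SE 0.20, edgeR adjusted p = 0.413). In *M. suffruticosa* the log2 fold change was −0.10 (SE 0.22, adjusted p = 0.745), and it ranged from −0.23 to 0.11 with single libraries left out. NDHO was at 181.8, 134.2, 143.1 and 165.6 rpm in *M. moricandioides*, at 147.9, 196, 120.2 and 105.2 rpm in *M. arvensis* and at 129.7, 117.5 and 102.7 rpm in *M. suffruticosa*. The *M. suffruticosa* plants lay just below those of *M. moricandioides*, and the *M. arvensis* plants spanned nearly the range of both. For NDHO the log2 fold change against *M. moricandioides* was −0.23 (SE 0.23, adjusted p = 0.437) in *M. arvensis* and −0.50 (SE 0.25, adjusted p = 0.141) in *M. suffruticosa*.

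CRR31, also named NDHS, belongs to the electron donor-binding part and provides a docking site for ferredoxin. It was at 212.1, 194.8 and 201.3 rpm in *M. moricandioides* plants 6, 8 and 15 and at 334.9 rpm in plant 12. It was at 340.3, 338.8, 337.1 and 321.4 rpm in *M. arvensis* plants 9, 12, 13 and 15 and at 220.6, 187.6 and 195.1 rpm in *M. suffruticosa* plants 6, 7 and 8. A single *M. moricandioides* plant therefore lay within the range of *M. arvensis*, while the other 3 lay with *M. suffruticosa*. Its log2 fold change was 0.39 (SE 0.21, edgeR adjusted p = 0.15) in *M. arvensis* and −0.31 (SE 0.23, adjusted p = 0.319) in *M. suffruticosa* against *M. moricandioides*. Between the intermediates, whose plants did not overlap, it was −0.70 (SE 0.23, adjusted p = 0.0348) in *M. suffruticosa*, not called. Without *M. moricandioides* plant 12, which is in neither intermediate but adds to the shared estimate of the spread, that adjusted p was 0.00933.

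Subcomplex B, which is found in land plant NDH but not in cyanobacteria, was represented by NDF1 and NDF2, also named PNSB1 and PNSB2. NDF1 was at 395.1, 325.9, 361.2 and 372.8 rpm in *M. moricandioides* plants 6, 8, 12 and 15 and at 428.2, 352.7, 338.6 and 334.9 rpm in *M. arvensis* plants 9, 12, 13 and 15. In *M. suffruticosa* plants 6, 7 and 8 it was at 160, 158.9 and 156.9 rpm. The *M. suffruticosa* plants (158.6 ± 1.59 rpm, coefficient of variation 1.00%) lay far below the plants of the other species, whose means were 363.8 ± 28.9 and 363.6 ± 43.7 rpm. The narrow spread in *M. suffruticosa* is not read as a trait. Plants 6 and 7 are a close pair, and rpm precedes TMM scaling, with factors of 1.01, 1.06 and 0.953 in plants 6, 7 and 8. The log2 fold change of *M. suffruticosa* was −1.27 against *M. moricandioides* (SE 0.21, interval −1.76 to −0.79, edgeR adjusted p = 0.000803), 2.42-fold lower. Against *M. arvensis* it was −1.18 (SE 0.21, interval −1.67 to −0.70, adjusted p = 0.00132), 2.27-fold lower. With each of the 11 libraries left out in turn, both calls held, at adjusted p values of at most 0.00657 and 0.00972. With the close pairs summed, the difference from *M. moricandioides* was still called (adjusted p = 0.00753) and that from *M. arvensis* was not (−1.26, adjusted p = 0.0111). *M. arvensis* and *M. moricandioides* overlapped for NDF1 (log2 fold change −0.09, SE 0.19, adjusted p = 0.715).

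NDF2, the other subcomplex B subunit of the list, did not share this pattern. It was at 177.2, 178.5, 170.1 and 169.7 rpm in *M. moricandioides*, at 235.8, 162.8, 161.1 and 153.3 rpm in *M. arvensis* and at 189.6, 173.3 and 153.7 rpm in *M. suffruticosa*. The species overlapped, and the 3 means lay between 172.2 and 178.2 rpm. The edgeR log2 fold change was −0.04 (SE 0.22, adjusted p = 0.905) in *M. arvensis* and −0.09 (SE 0.23, adjusted p = 0.796) in *M. suffruticosa* against *M. moricandioides*, with intervals of −0.53 to 0.46 and −0.63 to 0.45. The sign in *M. arvensis* turned to 0.04 with library totals. Between the intermediates the log2 fold change was −0.05 (SE 0.23, adjusted p = 0.877).

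**Figure D2:**
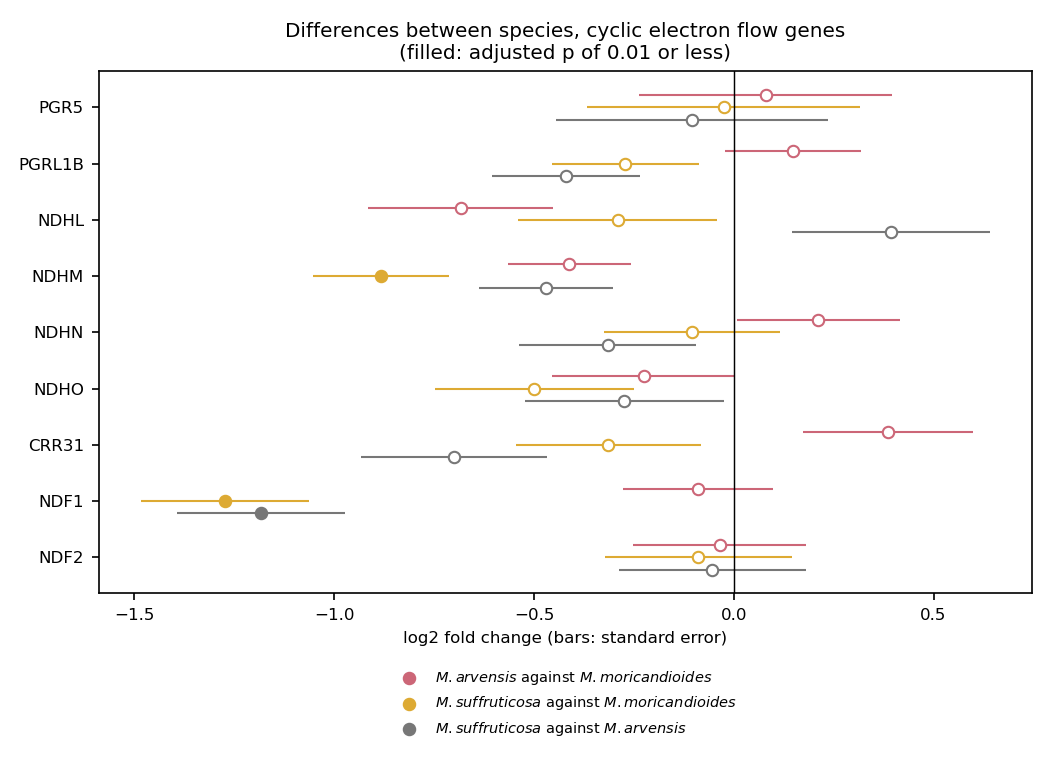
Log2 fold change (horizontal axis) of the 9 genes in the 3 comparisons between species, with the standard error as bars. Filled points mark an adjusted p of 0.01 or less (edgeR). NDF1 at −1.27 and −1.18 and NDHM at −0.88, all in comparisons with *M. suffruticosa*, are the filled points.

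Over the 9 tested genes, 0 were called between *M. arvensis* and *M. moricandioides*, where 35.0% of all transcripts tested were called, 18.2% higher and 16.7% lower. At an unadjusted p under 0.05, 2 of the 9 passed (NDHL and NDHM), and DESeq2 and limma-voom also called 0. Between *M. suffruticosa* and *M. moricandioides* 2 of 9 were called, both lower, against 18.9% of all transcripts (10.1% higher, 8.82% lower). Between *M. suffruticosa* and *M. arvensis* 1 of 9 was called, lower, against 19.3% of all transcripts (9.92% higher, 9.4% lower). In that comparison 4 of the 9 had an unadjusted p under 0.05 (NDF1, CRR31, NDHM and PGRL1B). The share of all transcripts with an unadjusted p under 0.05 was not computed. The counts at that level therefore do not show whether these genes differ from transcripts in general. These comparisons share plants and are given side by side. With so few genes, the counts of 2 and 1 called were close to the shares among all transcripts.

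Against *M. moricandioides*, the 9 genes had a median log2 fold change of −0.04 for *M. arvensis* and of −0.29 for *M. suffruticosa*, with −0.32 for *M. suffruticosa* against *M. arvensis*, where the medians of all transcripts were 0.02, 0.01 and −0.01. The sign was negative for 5, 9 and 8 of the 9 genes in these comparisons, against 48.7%, 49.1% and 50.5% of all transcripts. Plants of the compared species did not overlap in rpm for 4 of 9 genes in each comparison, where this held for 40.2%, 41.6% and 38.1% of all transcripts. In *M. arvensis* 2 of the 4 (PGRL1B and NDHN) lay above and 2 (NDHL and NDHM) below *M. moricandioides*, and with TMM scaling none of the 9 genes remained separate there. The 4 genes below *M. moricandioides* in *M. suffruticosa* were NDF1, NDHM, NDHO and PGRL1B, and the 4 below *M. arvensis* were NDF1, NDHM, CRR31 and PGRL1B. Both sets were the same with TMM scaling. The share of all transcripts without overlap was computed in rpm only, so that the counts after TMM scaling have no such share beside them.

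The genes differed in how much of their variation lay between species. Of the variance of log2 CPM over the 11 plants, 85.5% lay between species for NDF1 and 81.7% for NDHM. The share was 52.6% for CRR31, 51.2% for NDHL, 48.6% for PGRL1B, 29.1% for NDHO and 21.2% for NDHN, and it was 3.16% for NDF2 and 0.454% for PGR5. For NDF2 and PGR5 nearly all variation therefore lay among plants of the same species. The share was not computed over all transcripts, so that these values rank the 9 genes and do not show which share is unusual. Over the 11 plants, log2 CPM of the 9 genes correlated positively in 34 of 36 pairs (median Pearson r 0.549). The closest pairs were NDHM with NDF1 (0.896), PGRL1B with NDF1 (0.849) and PGR5 with NDF2 (0.838), and the pairs below 0 were NDHL with CRR31 (−0.181) and NDHN with NDHL (−0.047). All points of such a correlation share libraries, scaling and species, and these values are descriptions.

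The remaining nuclear subunits are given by the part of the NDH complex they belong to, and no test compared the parts. Subcomplex B has 5 nuclear-encoded subunits, and in *M. suffruticosa* 2 of them, NDF1 and NDH18 (AT5G43750, also PNSB5), were lower than in *M. moricandioides*. NDH18 was at 199.2, 244.8, 215 and 219.3 rpm in *M. moricandioides*, at 388.8, 333.7, 252 and 232.8 rpm in *M. arvensis* and at 75.6, 62.9 and 129.7 rpm in *M. suffruticosa*. All *M. suffruticosa* plants thus lay below all others, as for NDF1, but with a wider spread among them. The log2 fold change was −1.35 (SE 0.33, edgeR adjusted p = 0.00799) against *M. moricandioides* and −1.74 (SE 0.33, adjusted p = 0.00206) against *M. arvensis*. The first call was lost without any single *M. moricandioides* plant, without *M. arvensis* plant 12 and without *M. suffruticosa* plant 6 or 7 (adjusted p at most 0.0424), and the second without *M. suffruticosa* plant 6 or 7 (0.0136 and 0.0133). Both were also lost with the close pairs summed (adjusted p = 0.0385 and 0.0130). NDF4 (AT3G16250) did not pass the threshold, with log2 fold changes of −0.96 (adjusted p = 0.0109) in *M. arvensis* and −0.70 (adjusted p = 0.0866) in *M. suffruticosa*.

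In *M. arvensis* the called subunits were PNSL3 and PNSL4 of the lumen part and NDF6 of subcomplex B. PNSL3 (AT3G01440), a lumen subunit related to the PsbQ proteins of photosystem II, was at 92.7, 97.4, 94 and 116 rpm in *M. moricandioides* and at 35.1, 26.9, 34.8 and 30.1 rpm in *M. arvensis*. In *M. suffruticosa* it was at 115.7 and 111.3 rpm in plants 6 and 7 and at 42.1 rpm in plant 8. The *M. arvensis* plants lay below all others (log2 fold change −1.76, SE 0.27, edgeR adjusted p = 0.000259 against *M. moricandioides*), a 3.39-fold difference that was called with each library left out in turn. PNSL3 was higher in *M. suffruticosa* than in *M. arvensis* (1.51, SE 0.29, adjusted p = 0.00195), a call that was lost without *M. suffruticosa* plant 6 (adjusted p = 0.0118) or plant 7 (0.0117) and with the close pairs summed (1.27, adjusted p = 0.0293). PNSL4 (AT4G39710), an immunophilin-type lumen subunit, was lower in *M. arvensis* by 0.57 (SE 0.14, adjusted p = 0.00464), and the subcomplex B subunit NDF6 (AT1G18730) by 0.72 (SE 0.18, adjusted p = 0.00612). Both calls depended on single libraries: PNSL4 missed the threshold without *M. arvensis* plant 12, 13 or 15 (adjusted p at most 0.0169), and NDF6 without *M. moricandioides* plant 6 or 15 or *M. arvensis* plant 12, 13 or 15 (at most 0.0197). Both also missed it with library totals (0.0282 and 0.0125) and with the close pairs summed (0.0178 and 0.0231).

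Of all 18 nuclear NDH subunits, 3 were called lower and 0 higher in *M. arvensis* (PNSL3, PNSL4 and NDF6), and 3 lower and 0 higher in *M. suffruticosa* (NDF1, NDHM and NDH18), against *M. moricandioides*. Among all transcripts, 16.7% and 8.82% were called lower in these comparisons, so that the count in *M. arvensis* was no larger than the share among all transcripts. The median log2 fold change of the 18 was −0.33 in each. The 4 subunits of the electron donor-binding part, CRR31, CRRJ, CRRL and NDHV, gave 0 calls in the 3 comparisons. Of all transcripts, 35.0%, 18.9% and 19.3% were called there. CRRJ (AT4G09350, also NDHT) was at 34.9 and 31.6 rpm in *M. arvensis* plants 13 and 15, at 77.7 to 116.5 rpm in the other *M. arvensis* plants and in *M. moricandioides*, and at 181.2 to 218.6 rpm in *M. suffruticosa*. Its log2 fold change was 1.14 (SE 0.42, edgeR adjusted p = 0.0541) in *M. suffruticosa* against *M. moricandioides* and 1.53 (SE 0.42, adjusted p = 0.0153) against *M. arvensis*, and CRRJ was chosen for mention after its values were seen.

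**Figure D3:**
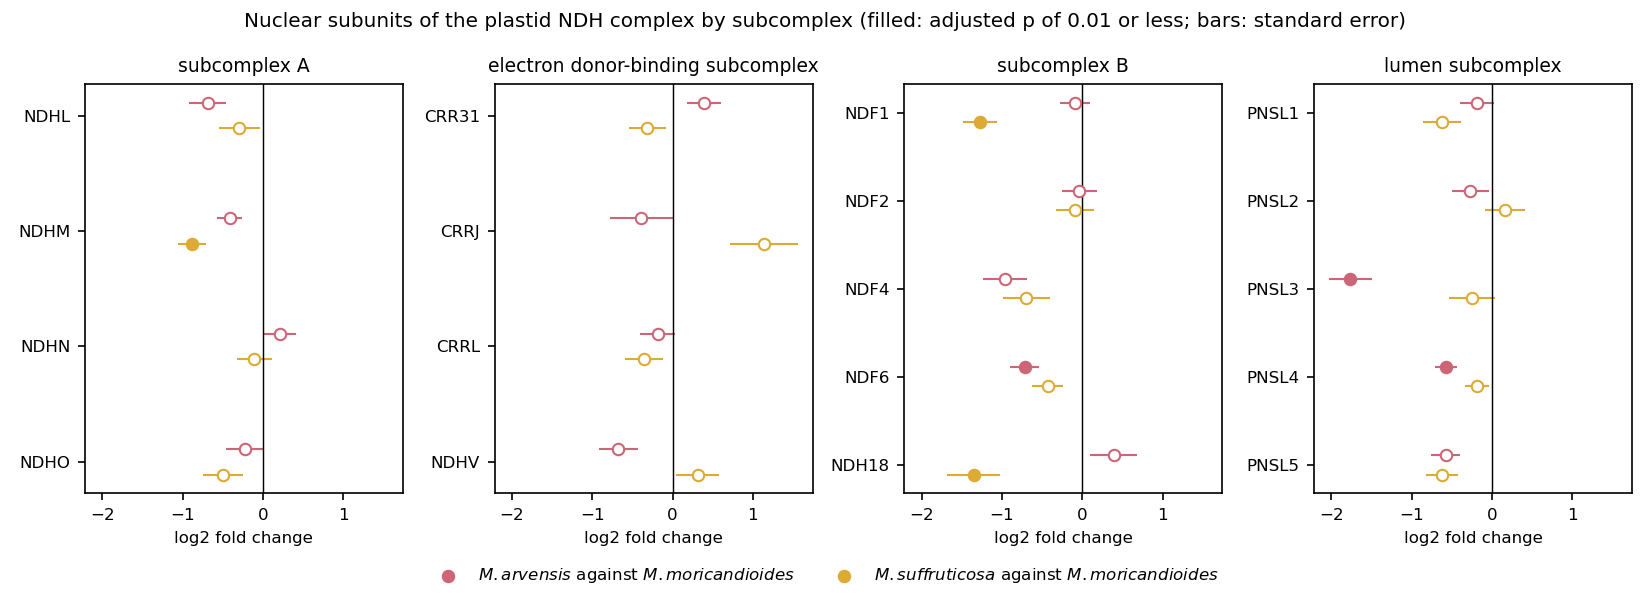
Log2 fold change against *M. moricandioides* (horizontal axes, standard error as bars) of the 18 nuclear NDH subunits, arranged by subcomplex. Filled points mark an adjusted p of 0.01 or less (edgeR): NDHM, NDF1 and NDH18 in *M. suffruticosa*, and NDF6, PNSL3 and PNSL4 in *M. arvensis*.

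Proteins that build the complex were tested as a list of 12 assembly and RNA processing factors, of which 1, 1 and 3 were called in the 3 comparisons, against 35.0%, 18.9% and 19.3% of all transcripts. In *M. arvensis* 1 was lower than in *M. moricandioides*, namely CPN60B4 (AT1G26230), a chaperonin subunit needed for folding of NDHH (log2 fold change −0.80, SE 0.18, edgeR adjusted p = 0.00267, but 0.0121 with library totals and 0.0130 with the close pairs summed). In *M. suffruticosa* 1 was lower, PAM68L (AT5G52780), an assembly factor of the NDH complex. PAM68L was at 73.7, 75.8, 75 and 106.7 rpm in *M. moricandioides*, at 111, 112.2, 153.3 and 145.3 rpm in *M. arvensis* and at 54.7, 46.4 and 47.3 rpm in *M. suffruticosa*. In rpm the 3 species did not overlap, while after TMM scaling *M. arvensis* and *M. moricandioides* did. The log2 fold change of *M. suffruticosa* was −0.82 (SE 0.18, adjusted p = 0.00427) against *M. moricandioides* and −1.34 (SE 0.18, adjusted p = 0.000239) against *M. arvensis*. The first was lost without any single *M. suffruticosa* plant (adjusted p at most 0.0283) and with the close pairs summed (0.0243), and the second held with each library left out. CRR3 (AT2G01590; −1.18, SE 0.26, adjusted p = 0.0046) and CRR4 (AT2G45350; −1.14, SE 0.29, adjusted p = 0.00928), the latter the RNA editing factor of the ndhD start codon, were also lower in *M. suffruticosa* than in *M. arvensis*. Without *M. suffruticosa* plant 6 or 7, CRR3 was at adjusted p = 0.0244 and 0.026 and CRR4 at 0.0429 and 0.0507, and CRR4 was also lost without *M. moricandioides* plant 6, 8 or 15 or *M. arvensis* plant 9, 13 or 15. With the close pairs summed, CRR3 was at 0.0291 and CRR4 at 0.0620.

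The 12 gene entries for plastid-encoded subunits, with NDHB entered as a pair of copies, had few reads in these libraries from purified mRNA. Of the 7 entries that could be tested, NDHK and NDHJ were higher in *M. arvensis* than in *M. moricandioides* and lower in *M. suffruticosa* than in *M. arvensis*. Of all transcripts, 18.2% were called higher in the first of these comparisons and 9.4% lower in the second. NDHK had 23, 14, 14 and 23 reads in the *M. moricandioides* plants and 81, 56, 45 and 61 reads in those of *M. arvensis*, while the *M. suffruticosa* plants had 29, 18 and 18. The *M. arvensis* plants lay above all others (log2 fold change 1.82, SE 0.33, edgeR adjusted p = 0.000709 against *M. moricandioides*, and −1.58, SE 0.36, adjusted p = 0.00529 for *M. suffruticosa* against *M. arvensis*). NDHJ had 4 to 17 reads in the *M. moricandioides* plants, 23 to 34 in the *M. arvensis* plants and 5 to 14 in those of *M. suffruticosa* (1.56, SE 0.41, adjusted p = 0.00766, and −1.86, SE 0.47, adjusted p = 0.00942). The first NDHK call held with each library left out. The first NDHJ call was lost without *M. moricandioides* plant 8, 12 or 15, *M. arvensis* plant 9, 12 or 15 or *M. suffruticosa* plant 7 (adjusted p at most 0.0245). Between the intermediates, both calls were lost without *M. arvensis* plant 9, 12 or 15 or without any single *M. suffruticosa* plant, and that of NDHJ also without *M. moricandioides* plant 12 or 15 (at most 0.0325 for NDHK and 0.0541 for NDHJ). With the close pairs summed, only the first NDHK call of these 4 held, and the others were at adjusted p = 0.0134 to 0.0311. NDHD, called in no comparison, had 26, 14, 24 and 27 reads in the *M. moricandioides* plants. It had 58, 61, 29 and 378 reads in those of *M. arvensis* and 205, 252 and 41 in those of *M. suffruticosa*. Reads from the whole plastid genome ranged from 195 to 1313 rpm in *M. arvensis*, 214 to 387 rpm in *M. moricandioides* and 370 to 1145 rpm in *M. suffruticosa*. The part of these plastid totals in the results on NDHK, NDHJ and NDHD was not tested.

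Among 11 electron carriers around photosystem I, 9 were tested, and 3 differed between *M. arvensis* and *M. moricandioides*, a share close to the 35.0% among all transcripts. TROL (AT4G01050) and TIC62 (AT3G18890), which tether ferredoxin-NADP reductase to the thylakoid membrane, were both lower. TROL was at 644.6, 689.3, 1104 and 764.9 rpm in *M. moricandioides*, at 354.7, 280.5, 294.5 and 280.1 rpm in *M. arvensis* and at 534.8, 542.5 and 528.9 rpm in *M. suffruticosa*. The 3 species did not overlap, and *M. suffruticosa* lay between the others. In *M. arvensis* the log2 fold change was −1.51 for TROL (SE 0.24, edgeR adjusted p = 0.000301) and −1.03 for TIC62 (SE 0.19, adjusted p = 0.000889). FDC1 (AT4G14890), a ferredoxin-like protein with an extended C-terminus, was higher by 0.96 (SE 0.18, adjusted p = 0.00109). These 3 calls held with each library left out. In *M. suffruticosa* against *M. moricandioides*, 0 of the 9 carriers were called by edgeR, against 18.9% of all transcripts, and 4 had an unadjusted p under 0.05. The share of all transcripts at that unadjusted level was not computed.

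**Figure D4:**
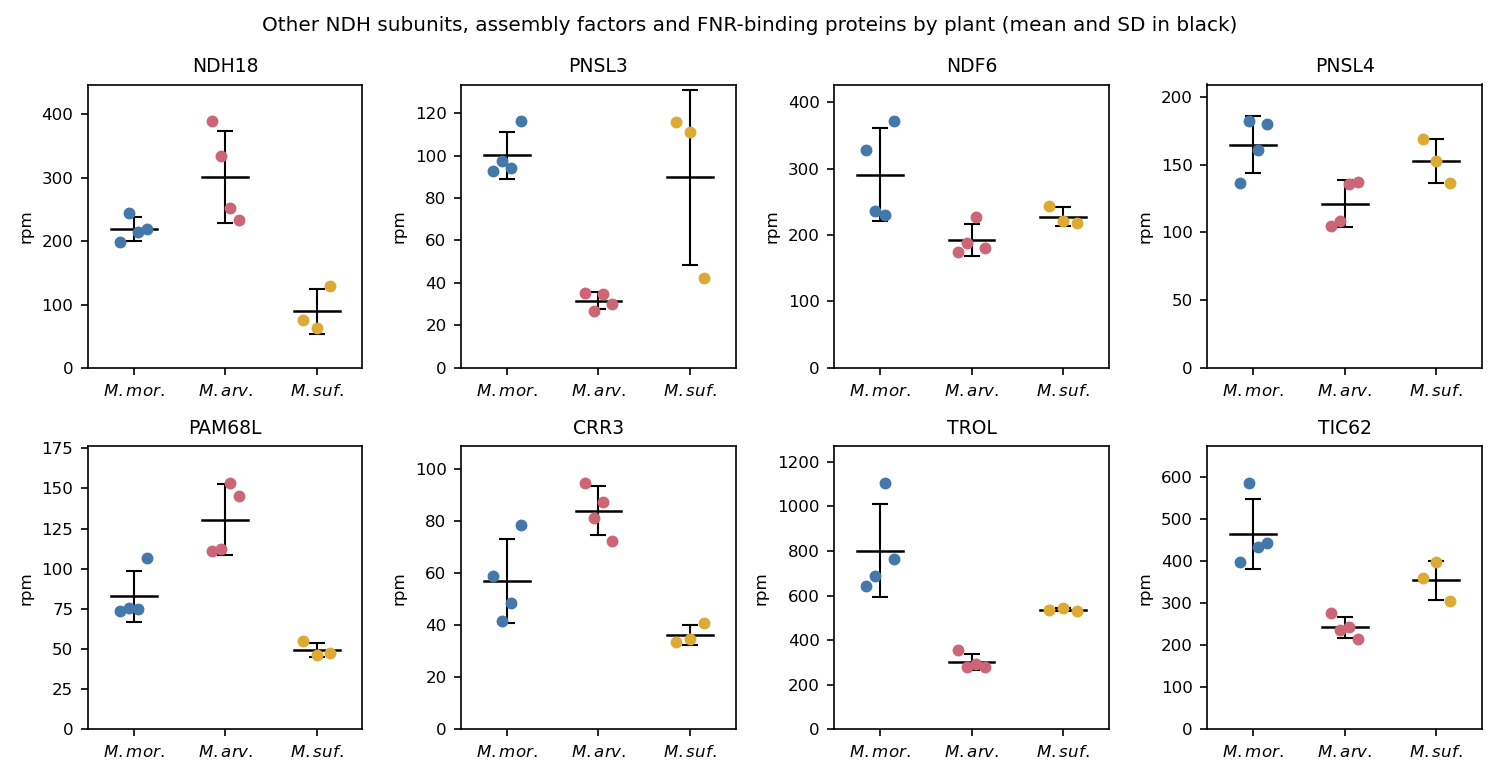
Transcript level in rpm (vertical axes, linear, each starting at 0) of other NDH subunits (NDH18, PNSL3, NDF6, PNSL4), assembly factors (PAM68L, CRR3) and the reductase-binding proteins TROL and TIC62, by species. Points are plants, in order of plant number, and black bars give the mean and SD. NDH18 is lowest in *M. suffruticosa*, PNSL3, TROL and TIC62 are lowest in *M. arvensis*, and *M. suffruticosa* plant 8 is separate from plants 6 and 7 for PNSL3.

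The proteins that the NDH complex attaches to, and the relatives of the PGR proteins, gave no calls. Among all transcripts 35.0%, 18.9% and 19.3% were called in the 3 comparisons. The photosystem I linkers LHCA5 and LHCA6, 0 of 2 called by edgeR in any comparison, included LHCA6 (AT1G19150) at an unadjusted p of 0.0239 in *M. arvensis* (log2 fold change −0.79, SE 0.31) and 0.0335 in *M. suffruticosa* (−0.80, SE 0.34). Of the 3 genes PGR6, PGRL2 and KEA3, 0 were called, and 2 had an unadjusted p under 0.05 in *M. arvensis*, PGR6 (0.49, SE 0.16) and KEA3 (−0.64, SE 0.22). Of the 9 nuclear photosystem I subunits tested, 0 were called and 0 had an unadjusted p under 0.05 in any of the 3 comparisons. Their median log2 fold changes were −0.23 in *M. arvensis* and −0.15 in *M. suffruticosa* against *M. moricandioides*. For the unadjusted p values of this paragraph, the share among all transcripts was not computed.

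The patterns over the 11 plants were also set against the 15493 tested transcripts outside the lists, by the Pearson correlation of log2 CPM. For PGR5 the closest were AT1G21500 (0.957), the ATP-citrate lyase subunit gene AT1G10670 (0.938) and AT3G25120 (0.935). For PGRL1B they were the glutamine synthetase gene AT5G35630 (0.966), AT1G33780 (0.962) and AT4G11570 (0.952). For NDF1 they were AT1G02020 (0.979), AT1G01050 (0.978) and AT1G09340, a chloroplast RNA-binding protein (0.976), and for NDHM the closest was AT5G38520 (0.972). For the mean standardised profile of the 7 NDH genes they were AT4G12830 (0.959), AT5G19540 (0.952) and AT2G32500 (0.952). These are the highest values among many transcripts in 3 species and are given as descriptions, and NDF1 and NDHM were added to this search after their values were seen.

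Cell type markers moved with species in part. The 3 leaf photosynthetic markers summed to 87929 to 102750 rpm in *M. moricandioides*, 65933 to 85135 rpm in the *M. arvensis* plants, which did not overlap with it, and 78998 to 109301 rpm in *M. suffruticosa*. Of these markers RBCS1A was called lower in the comparison of *M. arvensis* with *M. moricandioides* (log2 fold change −1.19, SE 0.26, edgeR adjusted p = 0.00264). All 3 tested of the 4 guard cell markers were called higher in *M. arvensis* than in *M. moricandioides*, where 18.2% of all transcripts were called higher. Their summed levels were 27.1 to 31.1 rpm in *M. moricandioides*, 41.6 to 75.2 rpm in *M. arvensis* and 34.3 to 41.5 rpm in *M. suffruticosa*. KAT1 was at 0 reads throughout. The 7 vascular and bundle sheath markers summed to 416 to 714 rpm in *M. moricandioides*, 476 to 793 rpm in *M. arvensis* and 425 to 784 rpm in *M. suffruticosa*, which overlapped, with SWEET12 at 0 reads. In that list SULTR2;2 was lower for *M. arvensis* against *M. moricandioides* (−1.04) and higher in *M. suffruticosa* than in *M. arvensis* (1.12), and APL was higher in *M. suffruticosa* than in *M. moricandioides* (0.79). The 2 epidermal markers, of which ATML1 was at 0 reads, summed to 136 to 197 rpm in *M. moricandioides*, 94.5 to 165 rpm in *M. arvensis* and 213 to 232 rpm in *M. suffruticosa*, and those of dividing cells to at most 2.97 rpm. FDH, the epidermal marker with reads, was higher in *M. suffruticosa* than in *M. arvensis* (0.89). The 3 flower markers summed to 0.278 to 0.652 rpm in *M. moricandioides*, 1.49 to 6.33 rpm in the *M. arvensis* plants and 0.273 to 1.13 rpm in those of *M. suffruticosa*, and the 1 that was tested, PI, was higher in *M. arvensis* than in *M. moricandioides* (4.08) and *M. suffruticosa*. The part of these differences in the results on NDF1, NDHM, PNSL3 and TROL was not tested.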

How the data were processed

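RNA from mature leaves of 11 plants was sequenced as single-end reads of 100 bp after mRNA purification. Per the labels and the study's methods, the authors aligned the reads to a minimal set of TAIR10 coding sequences of *Arabidopsis* and deposited, per plant, raw read counts per gene and the same values as rpm. CASAVA and edgeR are named in the submitters' processing notes, without versions. A deposited table of the authors' own fold changes and adjusted p-values and a table of read totals were not used. Gene lengths and sequences were not used here.

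The deposited counts were tested with edgeR 4.0.16 (R 4.3.3): transcripts were kept by filterByExpr with a minimum count of 10 (15570 transcripts), scaled by TMM, and fitted by species over all 11 libraries with glmQLFit and glmQLFTest. Benjamini-Hochberg adjustment covered all transcripts tested, with calls at 0.01 or less, as in the study. The biological coefficient of variation was 0.259. The script was tested on simulated counts of 8617 genes: 98% of 4-fold, 46% of 2-fold and 4% of 1.5-fold changes were called for *M. arvensis* against *M. moricandioides*, and 96%, 46% and 2% for *M. suffruticosa*. Only 50 genes per fold were changed there, while 35.0% and 18.9% of transcripts were called in the data. The adjusted threshold was therefore stricter in the simulation, and its rates are not those of the real fit. Levels, SD and overlap are from rpm, and fold changes from the fit. Correlations used log2 CPM with a prior count of 1. Alternatives were RLE factors, library totals, no filter or a mean of at least 10 CPM, DESeq2 1.42.0, limma-voom (limma 3.58.1), pairwise fits, a threshold of 0.05, the plant number as a block and leaving out each library. Summing the close pairs and overlap in TMM-scaled CPM were chosen after seeing the data.

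The genes and the lists around them were chosen with earlier results of these data known. All 10 genes are named. Of each other pathway list, up to 4 called transcripts per comparison with the largest fold change are named, and NDF4, CRRJ, NDHD, LHCA6, PGR6 and KEA3 were added after their values were seen. For the search of like patterns, the 3 closest transcripts were to be named for PGR5, PGRL1A and the NDH mean, and PGRL1B took the place of PGRL1A, which had no reads. Plants are separate individuals, and p-values measure the spread between plants of a single seed source per species.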

Additional observations from a re-analysis of the deposited data

Results flagged for a closer look

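In groups of 4 plants, a plant was singled out where its gap to the nearest other plant, divided by the range of the group, passed Dixon's 95% critical value. This was tried on 44 sets of 4 plants and singled out 5, where chance gives about 1 in 20. The rule was applied to rpm and was not repeated after TMM scaling. The TMM factors of *M. arvensis* plants 9, 12, 13 and 15 were 0.834, 1.04, 1.17 and 1.16. In that species the plant that stands apart can therefore differ after scaling. CRR31 was at 334.9 rpm in *M. moricandioides* plant 12, against 194.8 to 212.1 rpm in the other plants of that species. In *M. arvensis* plant 15 CRR31 was at 321.4 rpm, against 337.1 to 340.3 rpm in the others, a small gap in a narrow group. NDF2 was at 235.8 rpm in *M. arvensis* plant 9, against 153.3 to 162.8 rpm in plants 12, 13 and 15. NDHN was at 160.8 rpm in *M. arvensis* plant 12, against 183.7 to 186.9 rpm in the others. PAM68L was at 106.7 rpm in *M. moricandioides* plant 15, against 73.7 to 75.8 rpm in the others.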

How the results depend on the processing

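With RLE factors, DESeq2 and a mean of at least 10 CPM, each log2 fold change of the 9 genes and of the named list transcripts that could be tested kept its direction and side of the threshold. Over all alternatives, 809 of these values stayed so, 99 lost a call, 7 gained one and 26 turned sign. The calls of the 9 genes rose from 0 to 2 (*M. arvensis* against *M. moricandioides*) and from 1 to 3 (between the intermediates) at a threshold of 0.05. With the close pairs summed they fell to 1 (*M. suffruticosa* against *M. moricandioides*) and 0 (between the intermediates). With single libraries left out they were 0 to 2, 1 to 2 and 1 to 2. Of the 53 tested transcripts of the other lists, 9, 2 and 7 were called, against 35.0%, 18.9% and 19.3% of all transcripts. DESeq2 called 15 in *M. arvensis* and 6 in *M. suffruticosa*, pairwise fits 7 in *M. suffruticosa* and 3 between the intermediates, summed close pairs 6, 1 and 1 in the 3 comparisons, and a threshold of 0.05 gave 18, 7 and 11. With single libraries left out they were 6 to 19, 0 to 4 and 1 to 12. Calls among all transcripts moved as well. For *M. arvensis* against *M. moricandioides*, 2840 were higher and 2604 lower in the main fit. DESeq2 gave 3250 and 3203 there, and summed close pairs 2045 and 1919. For *M. suffruticosa* against the same species these numbers were 1577 and 1373, 2113 and 2107, and 820 and 604. They hardly moved with pairwise fits for *M. suffruticosa* (1465 and 1488) or without *M. arvensis* plant 9 for *M. arvensis* (2677 and 2736). The causes were not tested.

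None of the fold changes that turned sign was called. For *M. arvensis* against *M. moricandioides*, PGR5 was −0.0523 with limma-voom, and NDF2 was 0.0358 with library totals and 0.0652 with the close pairs summed. PGR5 in *M. suffruticosa* was 0.0591 with library totals against *M. moricandioides*, and 0.0462 with limma-voom against *M. arvensis*, where NDF2 was 0.0071. With single libraries left out, PGR5 ranged from −0.32 to 0.27, from −0.13 to 0.0497 and from −0.32 to 0.28 in the 3 comparisons. NDF2 ranged from −0.37 to 0.0733 in *M. arvensis* and from −0.19 to 0.27 between the intermediates, PGRL1B from −0.0337 to 0.20 in *M. arvensis*, and NDHN from −0.23 to 0.11 in *M. suffruticosa*.

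Plants with the same number in different species were not shown to be paired: the deviations of the 4 same-numbered pairs correlated at 0.0101 to 0.0287. With the plant number as a block, the calls of the 9 genes were 0 in each comparison and those of the other lists 1, 0 and 0. Few of all 15570 transcripts were called in that fit. When *M. arvensis* was set against *M. moricandioides*, 383 were higher and 417 lower. When *M. suffruticosa* was set against *M. moricandioides*, 79 were higher and 67 lower. Between the intermediates 0 of all transcripts were called, so that the counts of 0 there are not specific to these lists. In that block fit, PGR5 was −0.43, 0.24 and 0.67 in the 3 comparisons. PGRL1B was −0.0440 and NDHN −0.11 in *M. arvensis*, CRR31 was 0.0617 in *M. suffruticosa*, and NDHN was 0.0548 and NDF2 0.35 between the intermediates. NDF1 kept its direction under the block (−1.15, adjusted p = 0.0305 by edgeR, and −0.78, adjusted p = 0.28). Levels per coding length were not run, because no lengths were used here. NDHK and NDHJ rested on 81 reads or fewer per plant.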
